A study of Mus musculus with 2 samples.

Results

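Neurotransmitter receptor genes were followed in Neuro2a cells, a mouse neuroblastoma line, with and without knockdown of Cpeb1, which encodes a protein that binds the cytoplasmic polyadenylation element in messenger RNAs. The receptor genes were taken by a rule on their symbols, which was chosen with earlier results of these data known. The symbols were Gria, Grik, Grin, Grm, Gabra, Gabrb, Gabrg, Gabbr, Chrna, Chrnb, Chrm, Glra, Htr, Drd, Adra, Adrb and P2rx followed by a number. Glrb was included and Grina was left out. The rule gave 77 of the 18193 genes named on the array, and they had 155 probe sets. A probe set is a group of short probes that reads the transcript of 1 gene. The siControl group was Neuro2a cells transfected for 24 h with a control siRNA, and the siCPEB1 group was the same line transfected for 24 h with siRNA against the coding region of Cpeb1. RNA of each group was read on 1 array from 100 ng of total RNA. Neither group had a replicate, so no value has an error between cultures and no test was possible, and the line is a single tumour line with no control line beside it.

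Receptors for fast transmitters are ion channels built from several subunits. Nicotinic acetylcholine receptors, the serotonin 5-HT3 receptor, GABA-A receptors and glycine receptors share a ring-like architecture, ionotropic glutamate receptors form a separate family, and P2X receptors are cation channels opened by extracellular ATP. Muscarinic, dopamine, adrenergic, metabotropic glutamate and GABA-B receptors and the remaining serotonin receptors signal through G proteins. Autonomic ganglion neurons, which share their neural crest origin with neuroblastoma, are known for nicotinic receptors that contain the α3 and β4 subunits.

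The target of the siRNA was checked first. The Cpeb1 probe set read 302 in siControl-transfected cells and 38.5 in siCPEB1-transfected cells, an 8.08-fold lower signal. The median signal was 20.96 on the siControl array and 21.54 on the siCPEB1 array, and each log2 ratio of siCPEB1 over siControl is given after the difference between the array medians was taken off. A probe set was read as measured when it reached its array's median on at least 1 array and the 25th percentile on the other, and it was called when its ratio passed 2-fold. In place of replicates, the pooled SD of the log2 ratio between probe sets of the same gene was 0.37 over 14955 probe sets, and it went from 0.67 among the dimmest of 10 signal levels to 0.21 among the brightest. That spread holds measurement error but no difference between cultures.

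Most receptor genes were dim in this line. Of the 155 probe sets, 36 passed the signal filter (23.2%, against 52.6% of all probe sets), and they represented 25 of the 77 genes. Signal at the array median on both arrays was found for 21 receptor probe sets of 14 genes (13.5% of the receptor probe sets, against 46.9% of all). The 119 probe sets that did not pass had median signals of 3.52 in siControl-transfected cells and 4.54 in siCPEB1-transfected cells, and 115 of them were below the array median on both arrays. Acetylcholine and P2X receptors held 13 of the 25 measured genes.

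**Figure D1:**
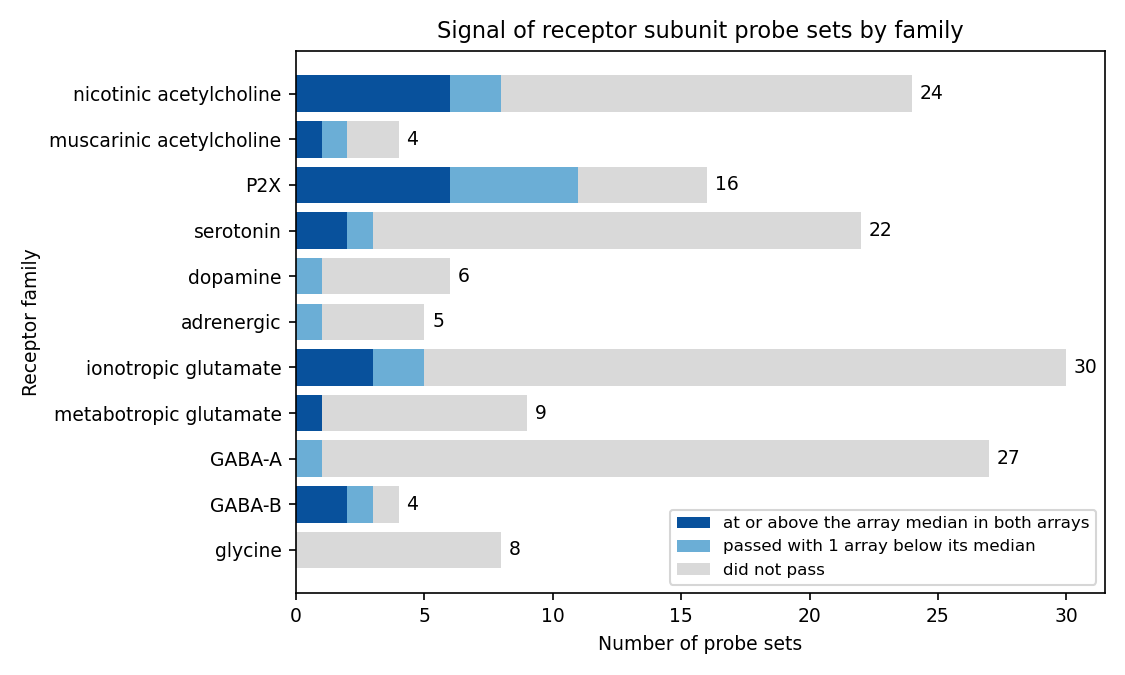
Receptor probe sets of each transmitter family by signal. Bars start at 0 and count probe sets. Their parts are probe sets at the array median on both arrays, those that passed with 1 array below its median, and those that did not pass. Nicotinic receptors had 8 of 24 probe sets passing (6 of 12 genes) and P2X receptors 11 of 16 (5 of 7 genes). None of the 8 probe sets of the 5 glycine receptor genes passed.

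The nicotinic genes of the α5, α3 and β4 subunits lie side by side on chromosome 9, and they are shown first because Chrna3 had the largest higher value among the measured receptor genes. In the RefSeq annotation of GRCm38.p6, Chrna5 occupies chr9:54980827-55011420 on the forward strand, Chrna3 chr9:55010117-55026562 on the reverse strand and Chrnb4 chr9:55028154-55048953 on the reverse strand. The 3 genes span 68.1 kb. Chrna5 and Chrna3 overlap by 1304 bases at their 3′ ends, and 1591 bases separate Chrna3 from Chrnb4. The 250 bases before a start site of each gene are printed from RefSeq, 5′ to 3′ on the strand of the gene. They are shown because the genes are neighbours in the cluster. The windows are chr9:54981238-54981487 for Chrna5, chr9:55026563-55026812 for Chrna3 and chr9:55048545-55048794 for Chrnb4. Those of Chrna5 and Chrnb4 lie inside the annotated spans of the genes, so they precede starts within the spans. For Chrna5 the window of the downstream start is printed. Capitals mark every copy of GGGCGG (a GC box, the letters of the Sp1 motif), of CAGCTG (an E box) and of TATAAA on either strand, none of which overlapped another here.
Chrna5: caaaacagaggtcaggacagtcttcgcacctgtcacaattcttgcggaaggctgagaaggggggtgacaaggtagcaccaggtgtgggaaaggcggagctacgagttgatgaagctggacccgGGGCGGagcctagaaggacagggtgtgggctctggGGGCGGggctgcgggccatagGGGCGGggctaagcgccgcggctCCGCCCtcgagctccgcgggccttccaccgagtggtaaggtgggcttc
Chrna3: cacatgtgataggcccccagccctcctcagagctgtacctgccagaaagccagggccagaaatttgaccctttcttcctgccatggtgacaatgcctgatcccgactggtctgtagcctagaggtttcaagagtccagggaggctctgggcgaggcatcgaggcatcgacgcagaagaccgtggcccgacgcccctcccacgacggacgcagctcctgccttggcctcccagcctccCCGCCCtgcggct
Chrnb4: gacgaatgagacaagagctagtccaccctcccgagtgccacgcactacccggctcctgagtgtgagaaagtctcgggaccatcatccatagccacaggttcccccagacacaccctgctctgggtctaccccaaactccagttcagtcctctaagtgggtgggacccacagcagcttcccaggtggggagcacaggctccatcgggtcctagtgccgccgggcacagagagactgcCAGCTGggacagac
The Chrna5 window held 4 GC boxes, the Chrna3 window 1 GC box and the Chrnb4 window 1 E box, with GC contents of 65.2%, 63.2% and 61.2%. A second Chrna5 start in the table, with the window chr9:54980630-54980879, held none of these motifs. GC boxes were present in 32.7% of 32851 promoter windows of this length and in 46.5% of the 71 windows of 58 receptor genes, E boxes in 13% and 8.45%, and TATAAA in 12.4% and 9.86%. A match is a description of letters and not of a bound site.

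Chrna3 encodes the α3 subunit, which forms ganglionic receptors with β4. Its brightest probe set read 166 in siControl-transfected cells and 736 in siCPEB1-transfected cells, and another read 163 and 697. These are 4.31-fold and 4.16-fold higher signals (log2 ratios of 2.11 and 2.06), where the spread between probe sets of a gene at that signal had an SD of 0.27. The third Chrna3 probe set was dim, at 10.8 and 20.6, and did not pass, with a log2 ratio of 0.90. Chrnb4, which encodes β4, had 1 passing probe set with signals of 13.4 and 30.7, a 2.23-fold higher value (log2 ratio 1.16). Its siControl signal was below the array median, and with that signal set at the median the difference was at least 1.43-fold. The other Chrnb4 probe set was at 4.92 on the siControl array, too dim for the filter, and at 98.1 on the siCPEB1 array, which is at least 4.55-fold higher by the same bound. Chrna5 encodes an accessory subunit that joins α3 and β4. Neither of its probe sets passed, with 4.35 and 34.9 in the first and 6.38 and 8.37 in the second, so that the first was at least 1.62-fold higher by the bound. Thus 3 of the 7 probe sets of these genes passed the filter, and those 3 were higher in siCPEB1-transfected cells. The rest also had values above 0, but were too dim to pass. Among them the third probe set of Chrna3 and the second of Chrna5 were below the median on both arrays, so the bound shows no difference for them.

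**Figure D2:**
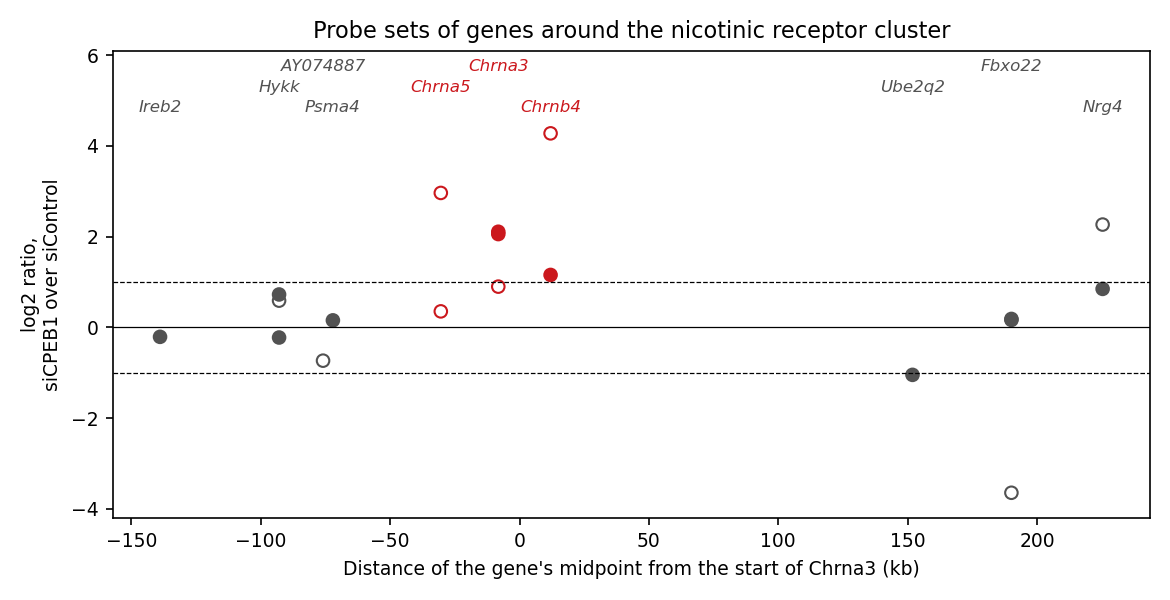
Each point is a probe set of the genes around the nicotinic cluster, with its log2 ratio (siCPEB1 over siControl) against the distance in kb of the gene's midpoint from the start of Chrna3. Filled points passed the signal filter, open points did not, cluster genes are in red and dashed lines mark 2-fold. The passing Chrna3 and Chrnb4 probe sets are above the upper line, and Ireb2, Psma4 and Fbxo22 have passing probe sets between the lines.

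Genes on both sides of the cluster, named after their values were seen, were set beside it. Psma4, a proteasome subunit gene on the Chrna5 side, read 2890 and 3307 (log2 ratio 0.15), and Ireb2, which encodes an iron regulatory protein, read 650 and 578 (log2 ratio -0.21). Hykk, which encodes a hydroxylysine kinase, had passing probe sets at 27.9 and 24.6 and at 13.4 and 22.7, with log2 ratios of -0.22 and 0.73. On the Chrnb4 side, Ube2q2, a ubiquitin-conjugating enzyme gene, read 297 and 148, a log2 ratio of -1.05. Beyond it, Fbxo22, an F-box gene, had log2 ratios of 0.16 and 0.19 at its passing probe sets and a dim probe set at 26.1 and 2.14 that did not pass, and Nrg4, a neuregulin gene, read 11.7 and 21.7 with a log2 ratio of 0.85. The siControl signals of Nrg4 and of the second Hykk probe set were below the array median. By the bound these were only at least 1.01-fold and 1.05-fold higher. Of these neighbours only Ube2q2 had a passing probe set past 2-fold, and it was lower.

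The other nicotinic genes lie elsewhere in the genome. Chrna7, which encodes the subunit of α7 receptors, read 106 and 215, a 1.97-fold higher signal (log2 ratio 0.98) that stood just inside the 2-fold limit, and its dim second probe set read 8.81 and 19.7. Chrna4 and Chrnb2 encode the subunits of the main nicotinic receptor of the brain. Chrna4 read 26.4 and 27.5 (log2 ratio 0.02). Chrnb2 read 46.1 and 51.0 at 1 probe set and 26.1 and 28.9 at another, each with a log2 ratio of 0.11, and its remaining probe set, at 27.8 and 2.81, did not pass. Chrnb1, the β subunit gene of the muscle receptor, read 36.8 and 18.8, a log2 ratio of -1.01 just past the limit, or at least 1.76-fold lower by the bound. Thus 2 of the 6 measured nicotinic genes were called higher and 1 lower, beside 4.58% higher and 3.89% lower of all measured genes. Among the called genes, Chrnb4 and Chrnb1 passed only through the array on which they were higher. With the array median required on both arrays, 1 nicotinic gene was called higher and 0 lower. Chrna1, Chrna2, Chrna6, Chrna9 and Chrnb3 had no passing probe set, like Chrna5. Among muscarinic receptors, which couple to G proteins, Chrm1 read 26 and 19.4 (log2 ratio -0.46) and Chrm4 read 24.8 and 24.3 (log2 ratio -0.07), while Chrm3 did not pass.

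The P2X family held the largest lower values among the measured receptor genes. P2rx3 encodes a subunit that is best known from sensory neurons and lies at chr2:84996549-85037108. Its 3 probe sets read 231, 121 and 41.7 in siControl-transfected cells and 52.0, 19.5 and 12.6 in siCPEB1-transfected cells. Each of them was lower after the knockdown, by 4.57-fold, 6.40-fold and 3.41-fold in that order (log2 ratios of -2.19, -2.68 and -1.77). The siCPEB1 signals of the latter pair were below the array median, and by the bound they were at least 5.78-fold and 1.99-fold lower. P2rx4, which encodes a widely expressed P2X subunit, had 3 passing probe sets that were slightly higher, at 302 and 386, at 277 and 340, and at 18.1 and 23.5, with log2 ratios of 0.31, 0.26 and 0.34. P2rx7, whose channel is known from immune cells, had 3 passing probe sets with lower values. They read 77.3 and 58.7, 69.0 and 42.9, and 42.5 and 32.2, with log2 ratios of -0.43, -0.72 and -0.44. P2rx6 read 20.2 and 34.2 (log2 ratio 0.72) and P2rx1 read 24.3 and 20.3 (log2 ratio -0.30). P2rx3 was the only 1 of the 5 measured P2X genes past 2-fold, and P2rx2 and P2rx5 were not measured, with signals of at most 3.96 in siControl-transfected and 1.71 in siCPEB1-transfected cells.

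**Figure D3:**
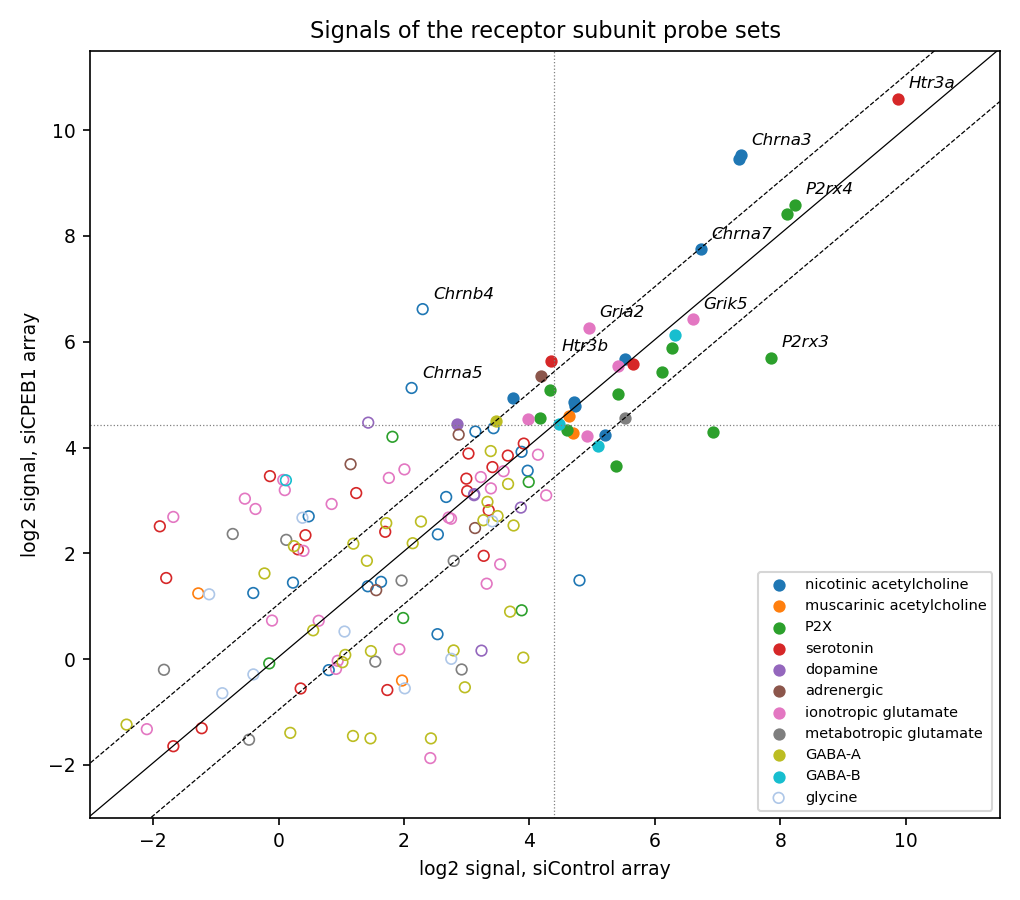
Log2 signal of all 155 receptor probe sets on the siControl array (horizontal axis) and the siCPEB1 array (vertical axis), coloured by transmitter family. Filled points passed the signal filter, dotted lines are the array medians, the solid line marks no difference after scaling and dashed lines mark 2-fold. The 2 brighter Chrna3 probe sets are above the upper dashed line and the 3 P2rx3 probe sets below the lower one, and most open points are below both medians.

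Serotonin receptors were represented mainly by the 5-HT3 channel. Htr3a, which encodes the subunit able to form this channel alone, read 945 in siControl-transfected cells and 1541 in siCPEB1-transfected cells. This was a 1.59-fold higher signal (log2 ratio 0.67) at a level where the spread between probe sets of a gene had an SD of 0.21. Htr3b, which encodes the B subunit that assembles with it, read 20.4 and 49.4, a 2.36-fold higher value (log2 ratio 1.24), and at least 2.29-fold by the bound. The genes are neighbours on chromosome 9, with 23855 bases between chr9:48899213-48911152 for Htr3a and chr9:48935008-48964990 for Htr3b. Each has 1 probe set. Htr1b, a G protein-coupled receptor gene, read 50.3 and 47.9 (log2 ratio -0.11), and its other probe set did not pass. The other 10 serotonin receptor genes (Htr1a, Htr1d, Htr1f, Htr2b, Htr2c, Htr4, Htr5a, Htr5b, Htr6 and Htr7) had 18 probe sets, all without a pass, which reached at most 15.0 on the siControl array and 16.8 on the siCPEB1 array.

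Receptor genes that followed one another on a chromosome with a gap of at most 500 kb formed 13 adjacent pairs, and both genes were measured in 3 of these pairs. Chrna3 with Chrnb4 and Htr3a with Htr3b had values of the same sign, whereas P2rx4 and P2rx7, 15181 bases apart on chromosome 5, differed in sign. Chrnb4 and Htr3b reached the array median only on the siCPEB1 array, so their values could only be above 0. The shared sign of these pairs is therefore no sign of a pattern among neighbours, which was not tested.

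Catecholamine receptors were near the lower limit of measurement. Drd4, a dopamine receptor gene, read 7.16 and 21.8 (log2 ratio 1.56), and since the siControl signal was far below the array median the bound was only 1.01-fold. Its other probe set, at 2.69 and 22.2, did not pass. Adra1b, an α1-adrenergic receptor gene, read 18.1 and 40.8, a 2.19-fold higher value (log2 ratio 1.13) and at least 1.89-fold by the bound. Both genes were called higher, each at 1 passing probe set. Drd1, Drd2 and Drd3 reached at most 14.6 on the siControl array and 8.68 on the siCPEB1 array, and the 4 probe sets of Adra2c at most 8.77 and 18.9.

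Ionotropic glutamate receptors were represented by 4 of 15 genes. Gria2, which encodes the AMPA receptor subunit that limits calcium entry, was called higher at 1 probe set, which read 30.8 and 77.0 (2.44-fold, log2 ratio 1.29). Its other passing probe set read 42.5 and 46.3, with a log2 ratio of 0.09, and the remaining dim one read 4.02 and 12. The 2 passing probe sets of Gria2 thus differed by more than the SD between probe sets of a gene at their signals, which was 0.43. Grik5 and Grik4 encode kainate receptor subunits. Grik5 read 97.1 and 85.7 (log2 ratio -0.22) and Grik4 read 15.8 and 23.1 (log2 ratio 0.51). Grin2d, an NMDA receptor subunit gene, read 30.2 and 18.7 (log2 ratio -0.74). The remaining 11 genes (Gria1, Gria3, Gria4, Grik1, Grik2, Grik3, Grin2a, Grin2b, Grin2c, Grin3a and Grin3b) had 23 probe sets with signals of at most 19.3 on the siControl array and 14.6 on the siCPEB1 array. Among metabotropic receptors only Grm4, a presynaptic group III receptor gene, was measured. It read 46.1 and 23.5, a 2.01-fold lower signal (log2 ratio -1.01) just past the limit. Grm2, Grm3, Grm5, Grm7 and Grm8 reached at most 7.57 and 5.15.

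Receptors for inhibitory transmitters were nearly all below the filter. Of 9 GABA-A receptor genes with 27 probe sets, Gabra6, the α6 subunit gene known from cerebellar granule cells, had 1 passing probe set with signals of 11.0 and 22.7. Its log2 ratio was 1.01, but by the bound it was only at least 1.06-fold higher, and its other probe set, which did not pass, read 11.3 and 6.52. Gabra2, Gabra3, Gabra4, Gabra5, Gabrb1, Gabrb2, Gabrg1 and Gabrg3 were not measured, with signals of at most 15.0 and 15.3. Gabbr1, which encodes the GABA-binding subunit of the GABA-B receptor, was the measured gene of its family. Its passing probe sets read 80.3 and 70.0, 22.2 and 21.8, and 34.3 and 16.3, with log2 ratios of -0.24, -0.06 and -1.11, and the third was at least 1.64-fold lower by the bound. The 8 probe sets of the glycine receptor genes Glra1, Glra2, Glra3, Glra4 and Glrb reached at most 10.6 on the siControl array and 6.38 on the siCPEB1 array.

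**Figure D4:**
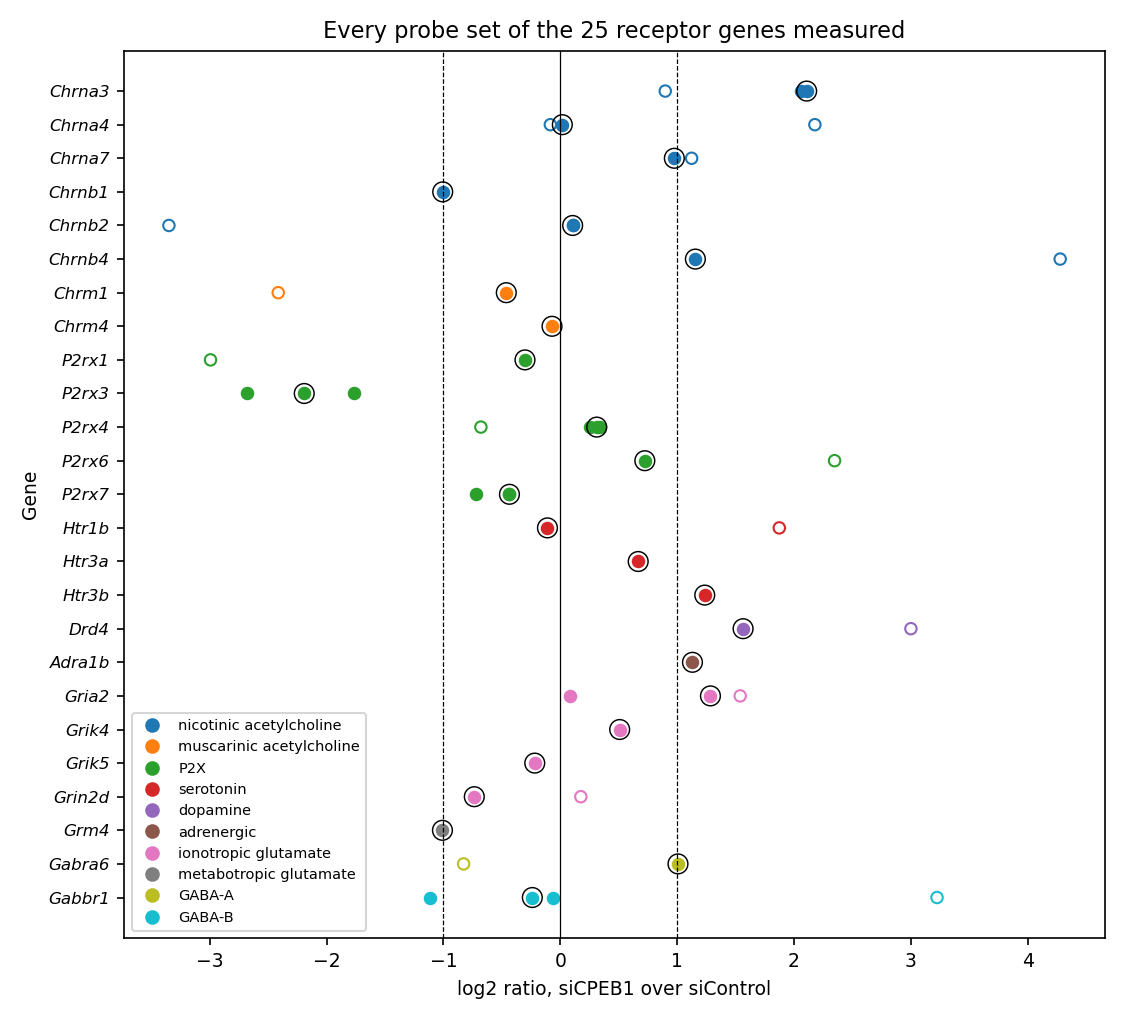
Log2 ratio of siCPEB1 over siControl at every probe set of the 25 measured receptor genes. Filled points passed the signal filter, open points did not, a black ring marks the probe set that stands for the gene and dashed lines mark 2-fold. Both passing Chrna3 probe sets are near 2, the 3 P2rx3 probe sets range from -2.68 to -1.77, and the 2 passing Gria2 probe sets are at 1.29 and 0.09.

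Counted over all families, 8 of the 36 passing receptor probe sets were past 2-fold higher (22.2%) and 6 past 2-fold lower (16.7%). The background over all 23686 passing probe sets was 4.13% higher and 4.54% lower. In siControl-transfected cells 5 of the 8 higher receptor probe sets did not reach the median of the array (62.5%, beside 50% of all higher probe sets), and in siCPEB1-transfected cells 4 of the 6 lower ones did not (66.7%, beside 37.7% of all lower ones). Among the 21 receptor probe sets at the median on both arrays, 3 were higher (14.3%) and 2 lower (9.52%), beside 2.31% and 3.17% of all 21124 such probe sets. With no filter, 27.7% of the 155 receptor probe sets were higher and 25.8% lower, beside 13.7% and 12.4% of all 45037. By the bound, 4 higher probe sets (both of Chrna3, and those of Gria2 and Htr3b) and 3 lower ones (2 of P2rx3 and that of Grm4) remained past 2-fold.

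Counted once per gene, 7 of the 25 measured receptor genes were higher (28%) and 3 lower (12%), beside 4.58% and 3.89% of 11562 measured genes. The higher genes were Chrna3, Chrnb4, Htr3b, Drd4, Adra1b, Gria2 and Gabra6, and the lower ones were P2rx3, Chrnb1 and Grm4. Only 4 of these, Chrna3 and Gria2 among the higher and P2rx3 and Grm4 among the lower, had both signals at the array median. Over the 25 genes the log2 ratio had a median of 0.11, beside 0.0058 for all measured genes, and 56% of the receptor genes had a value above 0, beside 50.5% of all. Those 4 were among 14 receptor genes with both signals at the median. Chrnb4, Htr3b, Drd4, Adra1b and Gabra6 reached the median only on the siCPEB1 array, and Chrnb1 only on the siControl array. These 6 thus passed only through the array on which they were higher. The called receptor genes lay in both directions, with a median over the 25 genes near that of the array.

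Genes that act with these receptors were counted in lists with the same filter. Of the receptor subunits that the symbol rule leaves out, 5 of 22 were measured, none was past 2-fold, and the median log2 ratio was 0.35. The UDP receptor gene P2ry6 read 107 and 150 and the histamine receptor gene Hrh1 read 37.6 and 27.1. Nicotinic chaperones and Ly6 proteins, a list that also holds kinase and cholinesterase genes, had 6 of 15 genes measured, none past 2-fold and a median of -0.23. Unc50, which encodes a Golgi protein linked to nicotinic receptor trafficking, read 1224 and 1075, and the kinase gene Jak2 read 162 and 160. Ric3, a chaperone gene of nicotinic and 5-HT3 receptors that was named after its values were seen, read 38.9 and 29.2 (log2 ratio -0.45). Of the 6 measured genes in the list, 5 were below 0.

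Auxiliary subunits of glutamate receptors had 9 of 21 genes measured, with a median of 0.36 and none past 2-fold. All 9 were above 0 at the probe set that stood for the gene, beside 50.5% of all measured genes. The lowest were Cacng3 and Cnih1, with log2 ratios of 0.03 and 0.04, and another passing probe set of Cacng4 had -0.10. The brightest were Cnih1, a cornichon gene, at 2277 and 2398, and Abhd6, a hydrolase gene, at 340 and 377. Glutamate receptor scaffolds had 17 of 24 genes measured and a median of -0.22. Camk2b, which encodes the β subunit of the calcium/calmodulin-dependent kinase, was the 1 scaffold gene called higher, at 23.2 and 50.4 (log2 ratio 1.08), and none was called lower. Dlg2, counted at a log2 ratio of 0.72, had other passing probe sets at 1.18 and 0.97.

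Inhibitory receptor scaffolds and trafficking proteins had all 15 genes measured, with a median of -0.06. Nlgn2, the neuroligin gene of inhibitory synapses, was the 1 gene called lower, at 168 and 80.2 (log2 ratio -1.11), whereas its other probe set had a log2 ratio of -0.24. Zdhhc3, counted at a log2 ratio of 0.31, had other passing probe sets at -1.22, 0.59 and 0.24. GABA-B auxiliary proteins and effectors had 3 of 9 measured, none past 2-fold, with a median of -0.17. Among them Kcnj6, a G protein-gated potassium channel gene, read 37.4 and 22.9, and Kctd16, an auxiliary subunit gene, read 16.5 and 29.5. Receptor kinases and arrestins had 10 of 12 measured, none past 2-fold, with a median of -0.31. The brightest were the receptor sorting gene Gprasp1 at 823 and 628 and the PDZ adaptor gene Slc9a3r1 at 649 and 397. Slc9a3r2 was counted at a log2 ratio of -0.65. It had 1 passing probe set past 2-fold higher, at 15.5 and 53.1 (log2 ratio 1.74), and others from -0.59 to 0.39. G protein alpha subunits and effectors had 18 of 25 measured and a median of -0.14. At the probe set that stood for the gene, none was called higher and 2 were called lower. Both called genes encode adenylyl cyclases, Adcy7 at 58.1 and 22.9 (log2 ratio -1.38) and Adcy4 at 28.8 and 14.5 (log2 ratio -1.03, at least 1.37-fold lower by the bound). Adcy7 was lower at all 3 of its probe sets, with log2 ratios of -0.79 and -1.39 at the others.

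**Figure D5:**
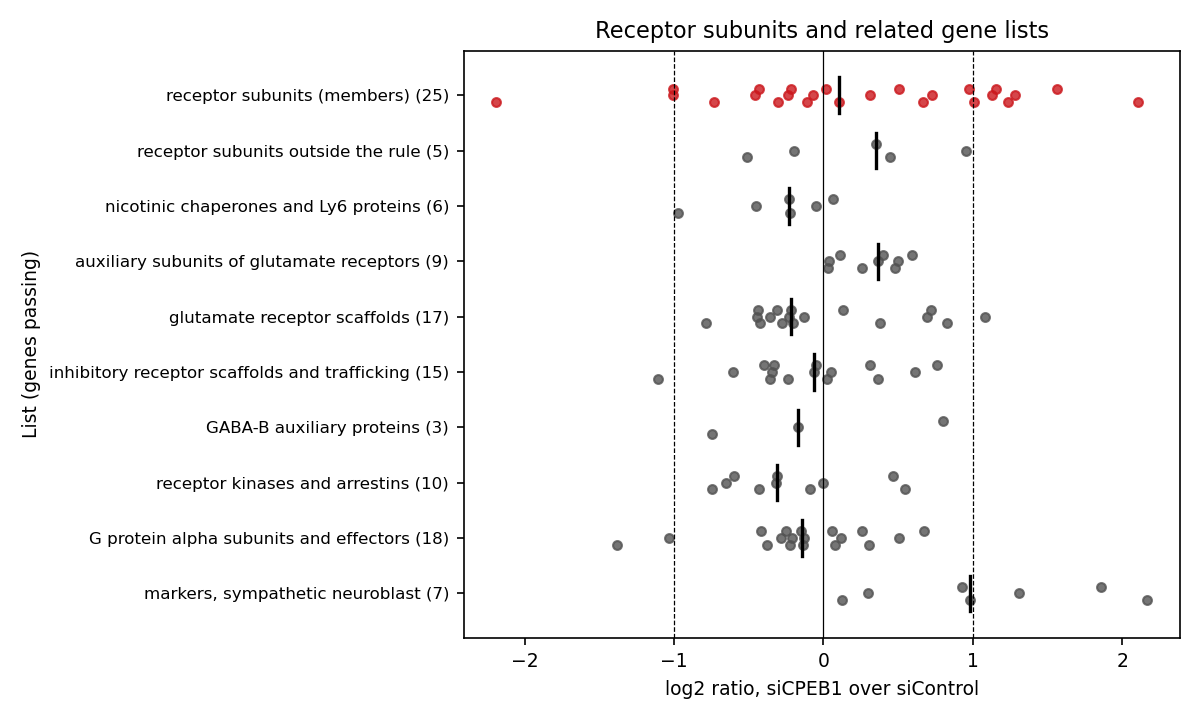
Each point is a measured gene at its log2 ratio (siCPEB1 over siControl), with the receptor genes in red and the related lists in grey, with black bars at the list medians and dashed lines at 2-fold. The receptor genes extend from -2.19 to 2.11 around a median of 0.11, and the 9 auxiliary subunits of glutamate receptors are all above 0.

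Markers were read to check the label of the cells. Of 8 sympathetic neuroblast markers on the array 7 were measured, and Th, the tyrosine hydroxylase gene, was not, at 18.6 and 17.9. All 7 had values above 0, beside 50.5% of all measured genes, with a median of 0.98, and the dim Th had a log2 ratio of -0.09. Isl1, Gata3 and Phox2a, which encode transcription factors of sympathetic neurons, were 4.49-fold, 3.63-fold and 2.48-fold higher in siCPEB1-transfected cells. Dbh, Chga, Hand2 and Tubb3 were 1.97-fold, 1.90-fold, 1.23-fold and 1.09-fold higher, short of the 2-fold limit. The summed signal of the brightest probe sets of this list was 6770 and 10054. The measured markers of this list were thus higher by unlike amounts alongside the α3 and β4 subunit genes, and their part in the receptor values was not tested. None of 4 astrocyte markers was measured (summed signal 36.6 and 45.8). In each of the oligodendrocyte, haematopoietic, fibroblast and endothelial lists 1 marker was measured, namely Mbp, Tyrobp, Pdgfra and Pecam1, and their summed signals were 61.8 and 62.5, 23.9 and 42.5, 47.2 and 71.5, and 67.2 and 109. Tyrobp was past 2-fold at 9.62 and 22.8, with a bound of 1.06-fold. Mbp, counted at a log2 ratio of 0.94, had other passing probe sets at 1.67, 1.06, 0.51 and -0.13. Whether a receptor signal came from fewer cells or from less RNA per cell cannot be told apart in RNA from a whole culture.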

How the data were processed

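The labels' treatment put 1 sample in the siControl group and 1 in the siCPEB1 group. Per the labels, the authors used MAS5 in Affymetrix Expression Console (versions not stated), and they deposited 1 linear intensity per probe set, background-subtracted and scaled per array by MAS5 to an unstated target. Subtraction makes ratios of dim probe sets unsteady. Precision is limited by 1 array per group.

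With 64 control probe sets left out, 45037 remained. The platform annotation, brought up to date by gene identifier with the RefSeq names of GRCm38.p6, gave 1 symbol for 34945 probe sets, several for 932 and none for 9160. No gene was named from several symbols, which left out 2 receptor probe sets. The difference of the array medians was -0.04 (log2, siControl minus siCPEB1). A bound sets a signal below its array's median at that median. Each gene was counted by 1 probe set, by preference not _x_at or _s_at, then by the brightest that passed. All measured receptor genes were named, those past 2-fold with all probe sets, and of related lists those past 2-fold or otherwise up to 2 of the brightest. The receptor genes, lists and rules were chosen with earlier results of these data known, and in the GABA-B list Marf1, entered in error, was replaced by Jakmip1 after its values were seen. Scaling, an added value, filters, cross-hybridizing probe sets and the summary per gene were varied. The scripts (Python 3.11.15, pandas 2.3.3, numpy 2.4.6, statsmodels 0.14.6, matplotlib 3.10.9) were tested on simulated data.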

Additional observations from a re-analysis of the deposited data

How the results depend on the processing

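Of 99 alternative values of the counts and medians, 79 stayed close to the reported value and 20 moved. A count was taken as close within a set factor of the reported count, and a median within the pooled SD between probe sets. Many of the 79 were counts of 0 in a family or list that remained 0. A stricter filter could hardly change such counts, so the 79 say little about how stable the calls were. The 8 higher and 6 lower receptor probe sets became 2 and 3 with 16 added to both signals, 3 and 2 with the array median required on both arrays, and 43 and 40 with no filter. The 7 higher genes became 1, 2 and 18 under these settings. The 3 lower genes became 1 without further scaling, 1 after loess scaling, 1 with 16 added and 14 with no filter. With the median required on both arrays, higher nicotinic genes went from 2 to 1, lower nicotinic genes from 1 to 0, higher serotonin, dopamine, adrenergic and GABA-A genes each from 1 to 0, and lower G protein and effector genes from 2 to 1. That setting and the unfiltered one differ by the number of dim probe sets tested. For the other changes the cause was not tested. The median log2 ratio of the receptor genes, 0.11 as reported, ranged from -0.06 to 0.21 and was below 0 in 2 settings, at -0.03 with the array median required on both arrays and at -0.06 with no filter. Among 150 alternative values of the 25 genes none was labelled reversed. That label was open only to genes past 2-fold, whose sign these settings could hardly change, so its absence says little about stability. Drd4 moved to 0.68 with 16 added and Gria2 to 0.69 with the mean of its passing probe sets. Chrna3 (2.01 to 2.15) and P2rx3 (-2.21 to -1.89) stayed past 2-fold in all 6 settings, whereas Chrna7, Chrnb1, Chrnb4, Htr3b, Drd4, Adra1b, Gria2, Grm4 and Gabra6 crossed the limit in 1 to 3 of them. No paired analysis was possible because each group has 1 array, and for the same reason no array could be left out. Signals below the array median limit what can be read from most receptor genes.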
